A study of Mus musculus with 12 samples.

Results

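MT2A, MT2B, MT2B1, MT2B2 and MT2C_Mm are long terminal repeats of endogenous retroviruses in the mouse genome. They were chosen by name, as 5 of the 18538 repeat names counted in each library, and the deposited annotation places all 5 in the LTR class and the ERVL family. They are related to MT2_Mm, the terminal repeat of the retrovirus MERVL, and are called the older MT2 repeats here. Their ages, lengths and copy numbers were not measured, so the level of one name is not compared with that of another.

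A long terminal repeat flanks each end of a retrovirus and carries its promoter, and many copies in the genome are solitary repeats left after the internal part was lost. In mice, MT2_Mm drives MERVL when the embryo's own genome is switched on at the 2-cell stage, and MERVL transcripts mark that stage. Terminal repeats of this kind can also serve as promoters or exons of neighbouring genes, so RNA counted under a repeat name can come from the retrovirus, from a solitary repeat or from a gene. KDM4A, the enzyme missing in the knockout, is a demethylase of histone H3.

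Total RNA was sequenced from C57BL/6 embryos at the 2-cell stage, labelled 1.5 days post fertilization. Embryos labelled WT (m+/p-) came from wild-type oocytes and embryos labelled Kdm4a knockout (m-/p-), called KO here, from Kdm4a knockout oocytes. Sperm were Kdm4a knockout in both cases, so the WT embryos also lacked a working paternal allele and the contrast was of the maternal allele and the product stored in the oocyte. There were 6 libraries per genotype. The number of embryos in a library and the number of oocyte donors are not stated in the labels, so the p-values measure the spread between these libraries, which may in part be technical. Because the contrast lies between oocytes of different females, other differences between those females cannot be told apart from genotype.

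Total counts ran from 7952526 to 18902360 per library. The older MT2 repeats summed to between 1.69% and 1.90% of the counts in WT libraries and between 1.38% and 1.58% in KO libraries. WT replicate 2 and KO replicate 5 stood apart from the rest on the first and the second principal component of all tested repeats, and results that rest on them are also given without them. The repeats used as markers of the labelled stage were abundant. MERVL-int, the internal part of MERVL, had a median of 64825 normalised CPM in WT, that is, counts scaled to a common depth and composition. MTA_Mm-int, an element abundant in oocyte RNA, had a median of 60260 in WT. In KO the medians were 35997 for MERVL-int and 42855 for MTA_Mm-int. Whether KO embryos had progressed as far through the stage was not tested. No gene was counted, so neither Kdm4a nor markers of other cells were analysed here. Each older MT2 repeat had at least 12934 counts in every library, where counting error is at most 0.879%. The spread between libraries was larger, with coefficients of variation from 6.42% (MT2A in WT) to 22.8% (MT2C_Mm in KO).

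All 5 older MT2 repeats had a negative log2 fold change in KO, except that MT2A turned to 0.031 under total-count scaling, and MT2C_Mm, MT2B2 and MT2B fell past the test. MT2A and MT2B1 did not pass it. The test compared the genotypes over all 3312 repeats with enough counts, and all 5 names were among them. Of all tested repeats, 42 were called lower in KO, or 1.27%, and 5 higher, or 0.151%, which makes 1.42% in either direction (edgeR quasi-likelihood test, Benjamini-Hochberg adjusted p under 0.05). In the LTR class, 4.08% were called lower. Simple repeats made up 2085 of the 3312, so shares of all tested repeats describe them in large part. With simple repeats left out of the test, 7.09% of repeats were called lower, and all 5 older MT2 repeats were among them. All 5 older MT2 repeats were lower at an unadjusted p under 0.05, which held for 7.91% of all tested repeats. The median log2 fold change was -0.41 over the 5 and 0.011 over all tested repeats. On normalised CPM the genotypes did not overlap for 3 of the 5, with all KO libraries beneath all WT libraries, against 1.39% of all tested repeats. Whole embryos were measured, so fewer transcribing cells and less RNA per cell cannot be told apart.

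MT2C_Mm, whose counts kept closest to those of MT2_Mm, had the most negative log2 fold change of the 5. In WT its level ran from 6537 normalised CPM in replicate 5 through a median of 8778 to 11545 in replicate 2. In KO it ran from 3397 in replicate 1 through a median of 5291 to 6363 in replicate 2. The highest KO library therefore stayed below the lowest WT library. Mean levels were 8772 ± 1679 for WT and 4969 ± 1135 for KO (SD, n = 6 per genotype), or -0.82 as a log2 fold change (SE 0.16, edgeR adjusted p = 0.0212). The call was lost without WT replicate 3, WT replicate 6 or KO replicate 6, with an edgeR adjusted p of up to 0.0660, and without both WT replicate 2 and KO replicate 5 (0.0665).

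MT2B2 fell as well, with a log2 fold change of -0.62 (SE 0.13, edgeR adjusted p = 0.0314). WT libraries ran from 1658 normalised CPM in replicate 5 to 2991 in replicate 2, with a median of 2160. KO libraries ran from 1078 in replicate 1 to 1602 in replicate 2, with a median of 1486. The groups did not overlap, but the gap between 1602 and 1658 was small beside the SD of 450 in WT and 207 in KO (n = 6 per genotype). Leaving out any of 8 libraries (WT replicates 3, 4 and 6, KO replicates 1, 3, 4, 5 and 6) ended this call, with an edgeR adjusted p of up to 0.0874. It was 0.0609 without both WT replicate 2 and KO replicate 5.

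MT2B had the smallest relative spread in WT of the 3 that fell, with a coefficient of variation of 9.94%. Its level ran from 4302 normalised CPM in WT replicate 1 to 5499 in WT replicate 2 around a median of 4582, and from 3123 in KO replicate 1 to 4125 in KO replicate 2 around a median of 3501. Again the groups did not overlap. The mean was 24.7% lower in KO, at 3535 ± 345 against 4697 ± 467 (SD, n = 6 per genotype), or -0.41 as a log2 fold change (SE 0.083, edgeR adjusted p = 0.0251). Leaving out any of 6 libraries (WT replicates 3 and 6, KO replicates 1, 3, 5 and 6) ended the call, with an edgeR adjusted p of up to 0.0717, as did leaving out both WT replicate 2 and KO replicate 5 (0.0750).

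**Figure D1:**
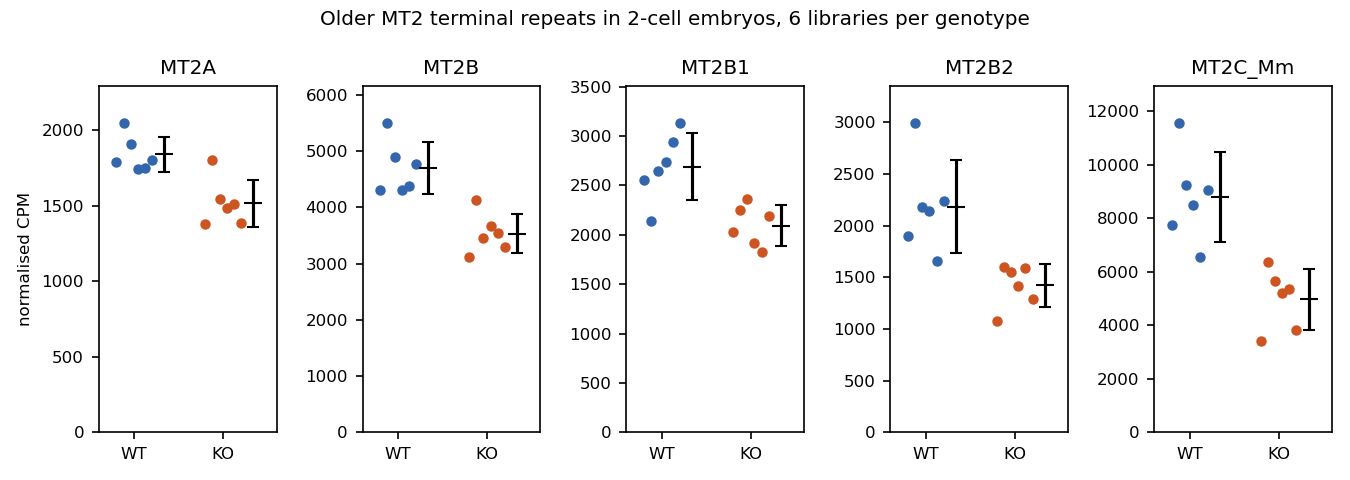
Normalised CPM (vertical axes, from 0, a separate scale per repeat) of the 5 older MT2 repeats in 6 WT and 6 KO libraries; points are libraries in order of replicate number, and bars beside them are the mean and SD. The genotypes do not overlap for MT2B, MT2B2 and MT2C_Mm, while 1 KO library of MT2A and 3 KO libraries of MT2B1 lie within the WT range.

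MT2A did not pass the test. WT libraries ran from 1740 to 2047 normalised CPM with a median of 1797, and KO libraries from 1378 to 1804 with a median of 1496. KO replicate 2, at 1804, was the library that overlapped WT, and the other 5 KO libraries lay below the lowest WT library. The log2 fold change was -0.28 (SE 0.076, edgeR adjusted p = 0.0784). It passed without KO replicate 2 (-0.33, edgeR adjusted p = 0.0190).

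MT2B1 did not pass either, and on normalised CPM its libraries were ordered differently from those of the other 4 names. Its lowest WT library was replicate 2, at 2142 normalised CPM, which was the highest WT library of each of the other 4. As shares of all counts, WT replicate 2 was the highest WT library of MT2B2 and MT2C_Mm only. For MT2A it was the lowest (0.157%), and for MT2B (0.422%) it lay below WT replicate 6 (0.433%). The highest WT library of MT2B1 was replicate 6, at 3131 normalised CPM, and the WT median was 2691. KO libraries ran from 1824 in replicate 5 to 2359 in replicate 3 with a median of 2107, and 3 of them lay below the lowest WT library. The log2 fold change was -0.36 (SE 0.094, edgeR adjusted p = 0.0643), and it passed without WT replicate 2 (-0.42, edgeR adjusted p = 0.0329).

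All of these changes are measured against the typical repeat. Scaling by total counts alone moved the median log2 fold change of all tested repeats from 0.011 to 0.32, and the split of calls over all repeats from 42 lower and 5 higher to 33 lower and 357 higher. Under that scaling MT2C_Mm and MT2B2 were still lower (-0.52 and -0.30, edgeR adjusted p = 0.00877 and 0.0382), against 0.996% of all tested repeats. MT2B was not called (-0.098, edgeR adjusted p = 0.292), and neither was MT2B1 (-0.060, edgeR adjusted p = 0.796) or MT2A (0.031, edgeR adjusted p = 0.787). With scaling taken from repeats outside the LTR class, 4 of the 5 were called lower, against 2.17% of all tested repeats, MT2B1 being the added one (-0.39, edgeR adjusted p = 0.0416).

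The calls also moved with the filter on low counts and with the tool. With no filter, which left 10386 repeats in the test, none of the 5 and 0.164% of all repeats were called lower, with edgeR adjusted p from 0.0585 for MT2C_Mm to 0.256 for MT2A, though all 5 kept an unadjusted p under 0.05. With a filter at a mean of 10 normalised CPM, without simple repeats, with DESeq2 or with limma-voom, all 5 were called lower, against 6.37%, 7.09%, 3.77% and 1.90% of all repeats tested in each case. MT2A then had an adjusted p of 0.0303, 0.0317, 0.0392 and 0.0448, and MT2B1 of 0.0304, 0.0278, 0.00814 and 0.0186, in that order of settings.

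**Figure D2:**
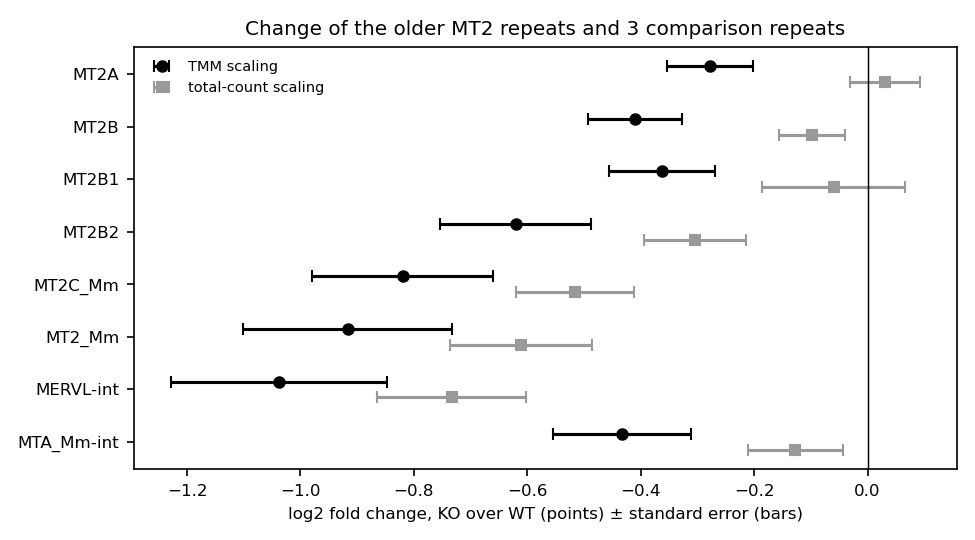
Log2 fold change of KO over WT (horizontal axis) with its standard error (bars) from edgeR for the 5 older MT2 repeats, MT2_Mm, MERVL-int and MTA_Mm-int, under TMM scaling (black circles) and total-count scaling (grey squares). Under TMM scaling the values run from -0.28 for MT2A to -1.04 for MERVL-int, and total-count scaling moves each of them to the right by a similar amount, so that MT2A reaches 0.031.

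Plain shares of all counts amount to scaling by total counts. They were compared by a two-sided exact permutation test over libraries, and p-values were adjusted over a family of 30 shares and ratios. MT2C_Mm took 0.780% ± 0.0874 of WT counts against 0.546% ± 0.0789 for KO (SD, n = 6 per genotype), with no overlap. Its exact permutation p of 0.0021645 is the smallest that 6 against 6 libraries can give (adjusted to 0.0162). MT2B2 took 0.194% ± 0.0238 of WT and 0.157% ± 0.0129 of KO counts (exact permutation, raw p = 0.00866, adjusted to 0.0236). MT2B took 0.420% ± 0.0123 of WT and 0.392% ± 0.0125 of KO counts (exact permutation, raw p = 0.00649, adjusted to 0.0236), and all 6 KO libraries were below the WT median. Unlike their normalised CPM, the shares of MT2B2 and MT2B overlapped between the genotypes. The highest KO share was 0.171% for MT2B2 and 0.409% for MT2B, and the lowest WT share was 0.162% and 0.399%.

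The shares of MT2A and MT2B1 did not pass. MT2A stood at 0.165% ± 0.00454 of WT and 0.168% ± 0.00683 of KO counts (exact permutation, raw p = 0.316, adjusted to 0.403), and MT2B1 at 0.244% ± 0.0455 and 0.234% ± 0.0308 (exact permutation, raw p = 0.673, adjusted to 0.714). The 3 shares that passed were those of the 3 names called by edgeR under TMM scaling. For MT2B the share test and edgeR under total-count scaling differed, since edgeR did not call it there (-0.098, edgeR adjusted p = 0.292). The share of MT2B2 missed the threshold without KO replicate 1 (exact permutation, adjusted p = 0.0531), and those of MT2B and MT2B2 missed it without both WT replicate 2 and KO replicate 5 (0.0549 each).

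Within the LTR class, whose share of all counts averaged 47.7% in KO and 55.9% in WT, the names parted. MT2A took a larger part of the LTR counts in KO, at 0.354% ± 0.0279 against 0.295% ± 0.0177 for WT (SD, n = 6 per genotype), and the lowest KO library exceeded the highest WT library (exact permutation, raw p = 0.0021645, adjusted to 0.0162). MT2C_Mm took a smaller part, at 1.14% ± 0.138 against 1.39% ± 0.134 (exact permutation, raw p = 0.0152, adjusted to 0.0350). MT2B went with MT2A, at 0.825% ± 0.0572 of KO and 0.752% ± 0.0366 of WT counts in the class (exact permutation, raw p = 0.0216, adjusted to 0.0464).

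Leaving out single libraries kept the sign of the differences of MT2C_Mm (from -0.295 to -0.210 percentage points) and MT2B (from 0.0526 to 0.0816) within the class, but their calls were lost in part. That of MT2C_Mm missed the threshold without WT replicate 2, 3, 4 or 6 or KO replicate 1, 4 or 6 (exact permutation, adjusted p up to 0.0699), and that of MT2B without WT replicate 1, 2, 3 or 4 or KO replicate 1, 3 or 6 (up to 0.0909). Without both WT replicate 2 and KO replicate 5 they were 0.0850 and 0.0952, and on ranks 0.0557 and 0.103. The parts taken by MT2B1 and MT2B2 did not pass (exact permutation, adjusted p = 0.403 and 0.514).

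Ratios between repeats of the same library need no scaling, and they were used to ask whether each older MT2 repeat changed as much as MT2_Mm. MT2_Mm itself changed by -0.92 on the log2 scale (SE 0.18, edgeR adjusted p = 0.0229). Its call was lost when WT replicate 3 (edgeR adjusted p = 0.0579), WT replicate 6 (0.0576), KO replicate 6 (0.0687) or the pair of WT replicate 2 and KO replicate 5 (0.0609) was left out, and with no filter (0.0630). Relative to it, MT2A, MT2B and MT2B2 were higher in KO. For MT2A the log2 ratio to MT2_Mm averaged -2.84 ± 0.26 over WT and -2.20 ± 0.30 over KO libraries (SD, n = 6 per genotype), a difference of 0.65 (exact permutation, raw p = 0.00433, adjusted to 0.0216), and all 6 KO libraries lay above the WT median. For MT2B it averaged -1.49 ± 0.23 and -0.98 ± 0.29, a difference of 0.52 (exact permutation, raw p = 0.00866, adjusted to 0.0236). The MT2B difference missed the threshold without WT replicate 2 or WT replicate 3 (exact permutation, adjusted p = 0.0590 and 0.0519) and without both WT replicate 2 and KO replicate 5 (0.0549).

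The ratio of MT2B2 to MT2_Mm was nearly constant over the WT libraries, at -2.62 ± 0.063 (SD, n = 6), with a lowest value of -2.68 and a highest of -2.51. In KO it was -2.30 ± 0.19, from -2.50 to -2.06, so the groups did not overlap, though narrowly. The difference of 0.32 gave an exact permutation p of 0.0021645 (adjusted to 0.0162) and passed without each single library.

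For MT2C_Mm the ratio to MT2_Mm averaged -0.61 ± 0.068 over WT and -0.51 ± 0.074 over KO libraries (SD, n = 6 per genotype). That difference of 0.095 missed the corrected threshold (exact permutation, raw p = 0.0455, adjusted to 0.0852), with values from 0.072 to 0.12 when single libraries were left out. It passed without WT replicate 5 or KO replicate 5 (exact permutation, adjusted p = 0.0410 and 0.0250). The sources used here do not say whether the names shared reads, so the separate levels of MT2C_Mm and MT2_Mm are uncertain.

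MT2B1 differed from MT2_Mm by 0.57 on the log2 scale, but its spread was large (-2.30 ± 0.48 over WT and -1.73 ± 0.42 over KO libraries) and the difference did not pass (exact permutation, raw p = 0.0498, adjusted to 0.0879). It passed without WT replicate 5 (0.69, exact permutation, adjusted p = 0.0244).

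**Figure D3:**
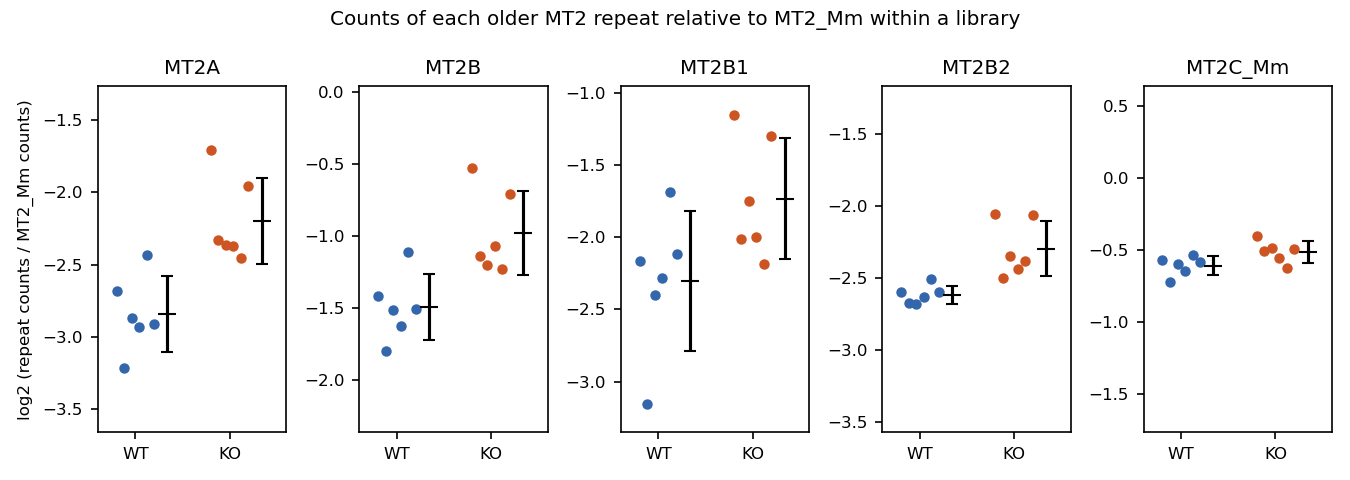
Log2 of the counts of each older MT2 repeat over the counts of MT2_Mm in the same library (vertical axes, all of the same length in log2 units), with points for the 6 libraries of each genotype and bars for the mean and SD. MT2A, MT2B and MT2B2 lie higher in KO by 0.65, 0.52 and 0.32, MT2C_Mm differs by 0.095, and MT2B1 is spread widely in both genotypes.

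The same ratios were formed for the 10 pairs of older MT2 repeats, of which 5 differed between the genotypes after correction. MT2C_Mm was the lower partner in 3 of them. The log2 ratio of MT2A to MT2C_Mm was higher in KO by 0.55, that of MT2B by 0.42 and that of MT2B2 by 0.22 (exact permutation, n = 6 per genotype, adjusted p = 0.0162, 0.0236 and 0.0236). The ratio of MT2A to MT2C_Mm separated the genotypes, from -2.50 to -1.90 over WT and from -1.87 to -1.30 over KO libraries. MT2A was also higher in KO relative to MT2B by 0.13 and relative to MT2B2 by 0.33 (exact permutation, adjusted p = 0.0216 and 0.0325).

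Of these 5 calls, 2 held without each single library, those of MT2A to MT2B and MT2A to MT2C_Mm. That of MT2A to MT2B2 was lost without WT replicate 2 or 3 or KO replicate 1, 2 or 6 (exact permutation, adjusted p up to 0.0649), that of MT2B to MT2C_Mm without WT replicate 2 or 3 (up to 0.0584) and that of MT2B2 to MT2C_Mm without WT replicate 3 (0.0541). Without both WT replicate 2 and KO replicate 5, only MT2A to MT2C_Mm among the 5 still passed, the other 4 each having an adjusted p of 0.0549. None of the 4 pairs with MT2B1 passed (exact permutation, adjusted p from 0.101 to 0.755), nor did MT2B to MT2B2 (0.109).

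Against MTA_Mm-int, the oocyte element, MT2C_Mm was lower in KO. MTA_Mm-int had itself a log2 fold change of -0.43 that did not pass (SE 0.12, edgeR adjusted p = 0.0901). The log2 ratio of MT2C_Mm to it averaged -2.81 ± 0.24 over WT and -3.19 ± 0.28 over KO libraries (SD, n = 6 per genotype, exact permutation, raw p = 0.0238, adjusted to 0.0476). That call held when WT replicate 5, or KO replicate 3 or 5, was left out, and was lost without each of the other 9 libraries (exact permutation, adjusted p up to 0.113). It was also lost on ranks (exact permutation, adjusted p = 0.0557). The ratios of the other 4 to MTA_Mm-int did not pass, with differences of 0.16 for MT2A, 0.035 for MT2B, 0.086 for MT2B1 and -0.17 for MT2B2 (exact permutation, adjusted p = 0.110, 0.714, 0.714 and 0.375).

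Libraries of the same genotype also differed among themselves, and this spread was compared with that of MERVL-int on log2 normalised CPM. Both values of a library carry the same scaling factor, and relations free of it were not tested. The 10 relations, 5 names in each genotype, were adjusted together. In WT, MT2C_Mm followed MERVL-int, with Pearson r = 0.984 and Spearman rho = 1.0 (n = 6, exact permutation p = 0.00278 for each, both adjusted to 0.0278). Without WT replicates 2 and 5, the 2 libraries farthest from the median of MERVL-int, r was 0.954. MT2B2 had r = 0.968 (exact permutation, adjusted p = 0.0370) and rho = 0.943 (exact permutation, adjusted p = 0.0833) in WT, and r = 0.784 without those 2 libraries.

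In KO, MT2C_Mm had r = 0.943 (n = 6, exact permutation, raw p = 0.0208, adjusted to 0.0521) and rho = 0.714 (adjusted to 0.170). MT2B2 had r = 0.926 (exact permutation, raw p = 0.0111, adjusted to 0.0370) and rho = 0.886 (adjusted to 0.0972). Without KO replicates 1 and 6, the libraries with the least MERVL-int, r was -0.039 for MT2C_Mm and 0.043 for MT2B2, so the relations in KO rest on those libraries.

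MT2B had r = 0.809 in WT and 0.813 in KO, and MT2A 0.841 and 0.703, none of which passed the correction (n = 6, exact permutation, adjusted p = 0.0714, 0.0602, 0.0602 and 0.145). Their rho values were 0.829, 0.829, 0.829 and 0.714 in the same order (exact permutation, adjusted p = 0.0972, 0.0972, 0.0972 and 0.170), and without the 2 farthest libraries r was 0.958, 0.463, 0.774 and 0.152.

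On normalised CPM, where both values carry the same scaling factor, the slopes give how far each name moved with MERVL-int. For each unit of log2 difference in MERVL-int between WT libraries, the fitted line climbed by 0.83 for MT2C_Mm, 0.85 for MT2B2, 0.35 for MT2B and 0.23 for MT2A. Between KO libraries the slopes were 0.77, 0.48, 0.26 and 0.23. MT2B1 had a negative r in both genotypes, -0.713 over WT and -0.155 over KO libraries (n = 6, exact permutation, adjusted p = 0.142 and 0.726), with rho of -0.429 and -0.314 (exact permutation, adjusted p = 0.466 and 0.564). Its r turned to 0.348 in WT without WT replicates 2 and 5, and was -0.733 in KO without KO replicates 1 and 6.

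**Figure D4:**
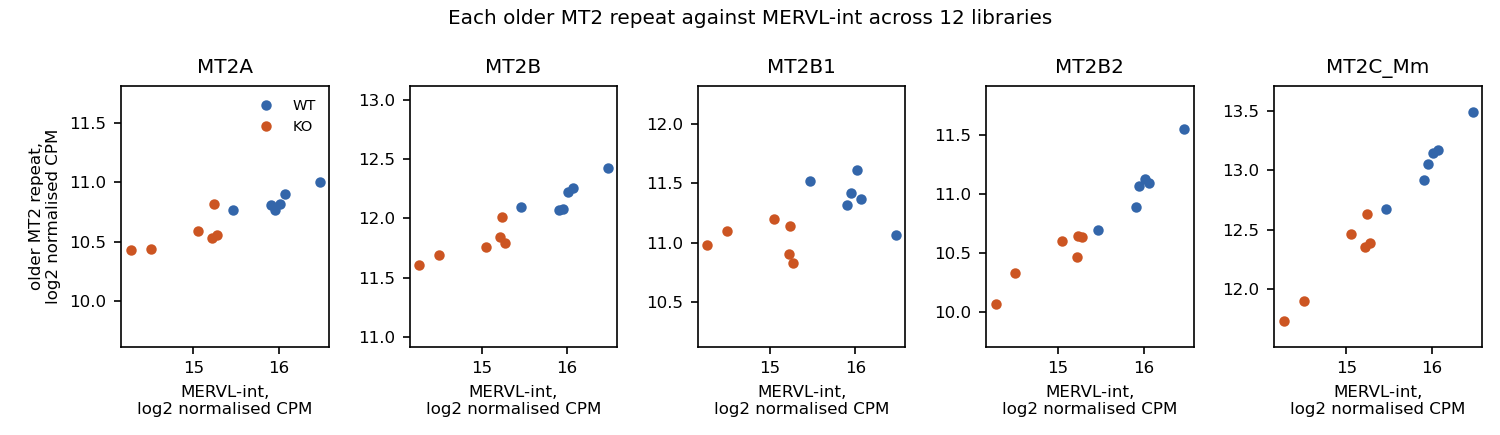
Log2 normalised CPM of each older MT2 repeat (vertical axes, all of the same length in log2 units) against that of MERVL-int (horizontal axes) in 6 WT (blue) and 6 KO (orange) libraries. MT2C_Mm and MT2B2 climb with slopes from 0.48 to 0.85, MT2A and MT2B with slopes from 0.23 to 0.35, and MT2B1 has a fitted slope below 0 within both genotypes. Both axes carry the same scaling factor of each library.

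To see which repeats varied most like each name once the genotype means were removed, log2 levels were centred within each genotype and correlated over the 12 libraries, among 898 repeats other than simple repeats and low-complexity tracts. These values are a description, since all share the libraries and their scaling. MT2C_Mm was most like MT2_Mm (r = 0.991), then UCON12, a repeat of unknown class (0.972), and L1MdA_II, a LINE-1 element (0.962). UCON12 and L1MdA_II were also called lower in KO (log2 fold change -1.08 and -0.90, edgeR adjusted p = 0.0149 and 0.0293). MT2B2 was most like RMER5, a terminal repeat of the ERV1 family (0.991), which also fell in KO (log2 fold change -0.56, SE 0.12, edgeR adjusted p = 0.0402). MT2_Mm (0.961) and RLTR20B5_MM of the ERVK family (0.959) came next, and RLTR20B5_MM was not called (edgeR adjusted p = 0.558).

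MT2A and MT2B were like one another (r = 0.914) and each was close to ORR1A1, an element of the ERVL-MaLR family (0.923 with both). The name most like MT2A was RMER12C of the ERVK family (0.942), and MTD of the ERVL-MaLR family was among the 3 most like MT2B (0.901). RMER12C, ORR1A1 and MTD were not called between the genotypes (edgeR adjusted p = 0.164, 0.124 and 0.597). The values of MT2A and MT2B with MT2_Mm were 0.813 and 0.852. MT2B1 had its highest values with ORR1D-int (0.892), RLTR10A (0.885) and the transfer RNA repeat tRNA-Lys-AAA (0.865), none of which was called between the genotypes (edgeR adjusted p = 0.875, 0.312 and 0.852). Without WT replicate 2, an alternative added after the data were seen, these were 0.813, 0.922 and 0.751. With the other 4 older MT2 repeats its values ran from -0.375 with MT2B2 to -0.165 with MT2A over all libraries, but their sign rested on WT replicate 2. Without that library all 4 were positive, at 0.206 with MT2A, 0.177 with MT2B, 0.092 with MT2B2 and 0.099 with MT2C_Mm.

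The other repeats of the ERVL family place these changes. The 3 MERVL names, MERVL-int, MERVL_2A-int and MT2_Mm, all fell, with a median log2 fold change of -1.02. Of 12 tested internal parts outside MERVL, 2 were lower and none higher by edgeR, with a median of 0.16 (8 positive and 4 negative). The lower ones were ERVL-int (-1.05, SE 0.19) and ERVL-B4-int (-1.03, SE 0.19), both at an edgeR adjusted p of 0.0159. These values were close to that of MERVL-int (-1.04, SE 0.19). Whether these names shared reads with MERVL is not stated, so their separate levels are uncertain. Of 85 other tested terminal repeats of the family, none was called lower and 1 higher, with a median of 0.064 and 35 negative values. The higher one was LTR82B, from 3.10 ± 0.63 to 7.32 ± 2.44 normalised CPM (SD, n = 6 per genotype, edgeR adjusted p = 0.0402). That is far below the older MT2 repeats, whose lowest group mean was 1421 (MT2B2 in KO). The lists were not matched for level, so their calls and medians are not compared at equal abundance. Among all 105 tested ERVL names, of which 7.62% were called lower, MT2C_Mm ranked 7 from the lowest log2 fold change, MT2B2 ranked 9, MT2B 15, MT2B1 18 and MT2A 22.

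**Figure D5:**
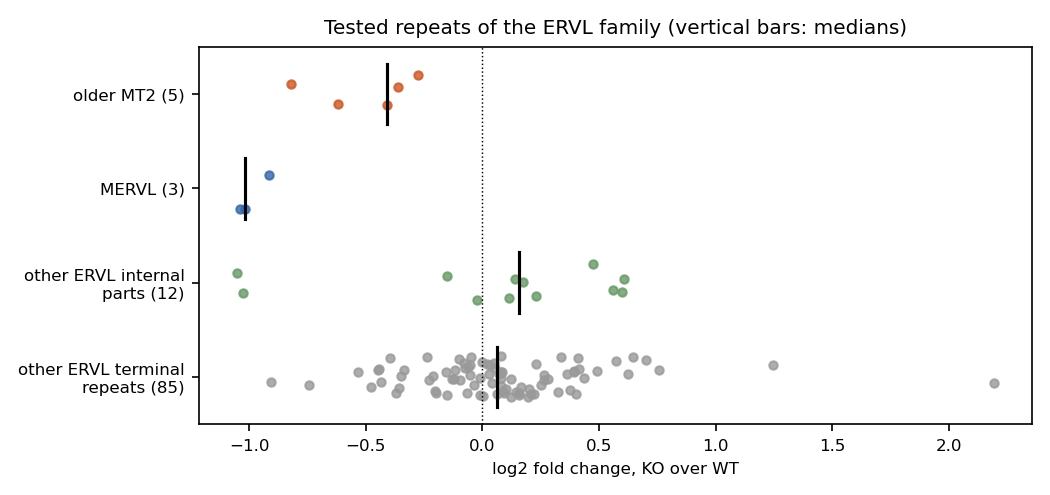
Log2 fold change of KO over WT (horizontal axis) for tested repeats of the ERVL family in 4 groups, with 1 point per repeat name, vertical scatter added for legibility and a bar at each group's median. The 5 older MT2 repeats lie between -0.82 and -0.28, the 3 MERVL names between -1.04 and -0.92, and the 85 other terminal repeats around a median of 0.064.

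The ERVL-MaLR family holds nonautonomous relatives with their own terminal repeats. None of its 19 MT elements was called in either direction by edgeR (median log2 fold change -0.30), and the one with the smallest p was MTC-int (-0.38, SE 0.092, edgeR adjusted p = 0.0552). Of 29 ORR1 elements, 2 were lower and 0 higher, with a median of -0.36. Those were ORR1A0-int and ORR1A3-int (-0.54 and -0.52, SE 0.12 each, edgeR adjusted p = 0.0359 and 0.0487). Beside the median of -0.41 of the older MT2 repeats, the difference between these lists was not tested.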

How the data were processed

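Stranded libraries depleted of ribosomal RNA were sequenced, per the labels' protocols. The authors deposited estimated counts for each repeat name, and all were whole numbers, so rounding changed nothing. The submitters' processing notes name mm10, Trimmomatic 0.32 and edgeR without their roles. The sources used here do not give the aligner, the repeat annotation or the use of strand. How unique and fractional read counts were combined is not given either, so the sharing of reads between names cannot be judged. Groups and replicate numbers come from the sample titles. Within each genotype, the numbers in the names of the deposited tables run in the reverse order of those in the titles. Each table was tied to its sample by the deposit record, and replicate numbers here are those of the titles. The members, lists and alternatives were chosen with earlier results of these data known.

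The genotypes were compared by edgeR 4.0.16 under R 4.3.3 (filterByExpr, TMM factors, quasi-likelihood F test, genotype as the only term). P-values were adjusted by Benjamini-Hochberg over 3312 repeats at a threshold of 0.05, and standard errors were taken from the F statistic. The script was tested on simulated data. Ratios used a pseudocount of 0.5 counts. Ratios and shares were tested by exact permutation over 924 regroupings (two-sided, written with numpy 2.4.6) and adjusted over 30. Ranks were taken with scipy 1.17.1. Named repeats were the 5 members, MT2_Mm, MERVL-int and MTA_Mm-int, the 3 repeats most like each member (mean of at least 10 normalised CPM, prior count of 2) and, from each list, up to 4 calls or the repeat with the smallest p. Within-group pairs of libraries (30) had a chi-square per degree of freedom of 25.0 to 143.8, so none agreed within sampling noise. DESeq2 1.42.0 and limma 3.58.1 served as alternatives.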

Additional observations from a re-analysis of the deposited data

How the results depend on the processing

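Each older MT2 repeat kept its sign under every other setting tried, except MT2A under total-count scaling (0.031). That scaling also lost the call of MT2B (-0.098). With no filter on low counts, which raised the number of repeats tested, the calls of MT2B (-0.40), MT2B2 (-0.61) and MT2C_Mm (-0.81) were lost and 0 of the 5 were called lower by edgeR, though all 5 had an unadjusted p under 0.05. All 5 were called lower with a filter at a mean of 10 CPM (MT2A -0.26, MT2B1 -0.35), without simple repeats (-0.27 and -0.35), with DESeq2 (-0.29 and -0.37) and with limma-voom with quality weights (-0.27 and -0.41). MT2B1 was called with scaling from repeats outside the LTR class (-0.39). Without both WT replicate 2 and KO replicate 5, edgeR called 0 of the 5 (MT2B -0.36, MT2B2 -0.54, MT2C_Mm -0.75, all 5 at an unadjusted p under 0.05, while DESeq2 on all libraries called 5), and the ratio of MT2B to MT2_Mm (0.51) missed the threshold.

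When single libraries, or WT replicate 2 and KO replicate 5 together, were left out, the log2 fold changes ran from -0.33 to -0.24 for MT2A, -0.46 to -0.36 for MT2B, -0.42 to -0.31 for MT2B1, -0.70 to -0.51 for MT2B2 and -0.90 to -0.73 for MT2C_Mm, and between 0 and 4 of the 5 were called lower. The differences in ratio to MT2_Mm ran from 0.43 to 0.59 for MT2B, 0.40 to 0.69 for MT2B1 and 0.072 to 0.12 for MT2C_Mm. Signs turned for 3 ratios that had not passed: MT2B to MTA_Mm-int (-0.011 to 0.075), MT2B1 to MTA_Mm-int (-0.031 to 0.16) and MT2B to MT2B1 (-0.098 to 0.059, and 0.018 without both doubtful libraries). In alternatives added after the data were seen, the likeness of MT2B1 to the other 4 turned positive without WT replicate 2 (0.206 for MT2A, 0.177 for MT2B, 0.092 for MT2B2, 0.099 for MT2C_Mm) and without KO replicate 5 as well (0.240, 0.225, 0.319 and 0.233). The cause of these changes was not tested.

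The number of all repeats called, 47, was 390 under total-count scaling, 78 with scaling outside the LTR class, 18 with no filter, 115 with the filter at 10 CPM, 106 without simple repeats, 165 with DESeq2, 71 with limma-voom, 72 with library size as a covariate, 23 without both doubtful libraries and 19 to 93 without single libraries.

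The replicate numbers did not pair the libraries (correlations of deviations from -0.071 to 0.15, with 1 of 6 above 0.1, and 1 WT library best matched by its own number). With a replicate block, edgeR called 47 repeats lower and 1 higher, with 3 older MT2 repeats among the lower. The sign-flip test with that block gave the same differences in ratio to MT2_Mm (0.65 for MT2A, 0.52 for MT2B, 0.32 for MT2B2), each with an exact adjusted p of 0.134. Its smallest possible p is 0.03125 (n = 6), so it has little room to pass a correction over 30. Expression of single genomic copies was not measured here.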
